A study of Mus musculus with 4 samples.

Results

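The Z-disc and stretch-response genes described here are 10 genes, Ankrd1, Ankrd2, Csrp3, Myoz1, Myoz2, Fhl1, Fhl2, Fhl3, Xirp1 and Xirp2, of 18193 genes named on the arrays. They were chosen by name as LIM, ankyrin-repeat, myozenin and Xin genes and selected on measured values, since several were known to be much lower in d/d muscle than in f/f muscle. That difference is therefore given as a description and supports nothing further. Of the 10 genes, 9 were represented on the arrays, by 12 probe sets with a gene symbol of their own, and Xirp2 was represented by 0. Ankrd1, Myoz1 and Fhl1 had 2 probe sets each.

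Transcripts were measured on 4 oligonucleotide arrays, 1 for each tissue, heart and skeletal muscle, of d/d mice and of f/f mice. The d/d mice were bred from floxed MnSOD (Sod2) mice and an MCK-Cre line, which expresses Cre recombinase in muscle tissues, so that Sod2 is deleted in heart and skeletal muscle. The f/f mice are homozygous for the floxed gene and served as controls. The labels do not give the strain, age or sex, whether f/f mice carried Cre, how many animals each sample held, whether a heart and a muscle shared an animal, or which muscle was taken. The MCK promoter is a promoter of striated muscle cells, so fibroblasts, vessel cells and blood cells of a d/d tissue keep the gene. Each group had 1 array, so no error between animals exists, no d/d against f/f difference was tested, and each describes a pair of arrays. In tissue RNA, fewer cells of a type and less RNA per cell cannot be told apart.

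The Z-disc is the plate at each end of a sarcomere to which actin filaments and the ends of titin are anchored. Proteins bound there sense stretch: Csrp3 (muscle LIM protein) binds the Z-disc proteins telethonin and alpha-actinin, the ankyrin-repeat proteins Ankrd1 and Ankrd2 bind an elastic part of titin, and several of these proteins also enter the nucleus. The myozenins tether the phosphatase calcineurin to alpha-actinin, with Myoz2 the form of heart and slow fibres and Myoz1 that of fast fibres. The FHL proteins are chains of LIM domains that act as scaffolds for sarcomere and signalling proteins, and Xirp1 and Xirp2 bind actin at intercalated discs and at the ends of muscle fibres.

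Signals are given after each array was scaled to 1 common trimmed mean, and a signal under the floor of 7.51 was treated as not measured above background. Between 58.0% and 61.1% of probe sets lay above the floor on each array. The markers matched the tissue labels: 12 of 12 cardiac markers were above the floor on each heart array, and 10 of 10 fast fibre markers on each muscle array. The targeted gene, Sod2, read 1927 in d/d heart against 2330 in f/f heart on its brightest probe set, and 1732 in d/d muscle against 1667 in f/f muscle. Of its 4 probe sets, 4 were lower in d/d heart and 3 lower in d/d muscle. The position of these probe sets on the gene, inside or outside the deletion, is not known here, so these values do not check the genotype.

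In muscle, 8 of the 12 probe sets of Z-disc and stretch-response genes were at least 2-fold lower in d/d than in f/f, and 0 were at least 2-fold higher. Over all 31153 probe sets measured in muscle, 3.40% were at least 2-fold lower and 3.13% at least 2-fold higher. Because this difference chose the genes, nothing is read from the contrast of these shares. The 8 probe sets belong to Csrp3, Fhl3, Ankrd2, Myoz2, Fhl1, Ankrd1, Xirp1 and Fhl2, and the gene without such a probe set was Myoz1. Counted by the brightest probe set of each gene, as for the lists below, 6 of 9 genes were at least 2-fold lower. Ankrd1 and Fhl1 did not pass on that probe set. By the same count, 3.25% of all 14256 genes measured in muscle were at least 2-fold lower. The median log2 difference of the 12 probe sets was -1.17, beside 0.01 over all probe sets measured in muscle.

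Csrp3 (probe set 1460318_at), which stabilises the Z-disc and is needed for its response to stretch, read 249 in d/d muscle, against 1979 in f/f muscle. On the heart arrays it read 5094 in d/d against 4764 in f/f. The d/d muscle array alone was low, 7.95-fold under f/f muscle, a log2 difference of -2.99, while the hearts differed by 0.10. The gene lies on chromosome 7, at 48830398 to 48848051 of GRCm38.p6.

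Fhl3 (1420779_at), a FHL family member of skeletal muscle, read 8.67 in d/d muscle, just over the floor, against 61.1 in f/f muscle, with 0.972 in d/d heart against 2.13 in f/f heart, both under the floor. It was 7.04-fold lower in d/d muscle. The f/f muscle array was thus the only array on which Fhl3 stood clearly above background. The gene lies on chromosome 4, at 124695964 to 124708611.

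Ankrd2 (1419621_at), a stretch-responsive gene of skeletal muscle, read 275 in d/d muscle against 1235 in f/f muscle, 4.50-fold lower in d/d. Its heart signals, 1.15 in d/d against 5.78 in f/f, were both under the floor. Ankrd2 was thus above the floor on both muscle arrays and on neither heart array. Ankrd2 lies on chromosome 19, at 42035917 to 42045111, and Ankrd1 on the same chromosome, at 36111965 to 36119844.

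Ankrd1, the cardiac ankyrin-repeat protein and an early marker of mechanical load, was carried by 2 probe sets. On 1420991_at it read 78.7 in d/d muscle against 127 in f/f muscle, 1.61-fold lower in d/d. On 1420992_at it read 74.7 in d/d muscle against 172 in f/f muscle, 2.30-fold lower. The probe sets have the same direction and differ in size, and only the second passed 2-fold.

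Of the myozenins, Myoz2 (1418769_at) read 663 in d/d muscle, against 1897 in f/f muscle, 2.86-fold lower in d/d. Myoz1 did not share this direction. On its brighter probe set, 1460202_at, it read 5270 in d/d muscle against 4641 in f/f muscle, 1.14-fold higher in d/d, and on 1448636_at it read 354 in d/d against 243 in f/f muscle, 1.46-fold higher. The myozenin of heart and slow fibres was low in d/d muscle and that of fast fibres was not. Myoz2 lies on chromosome 3, at 123006206 to 123035003, and Myoz1 on chromosome 14, at 20649102 to 20656540.

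Fhl1, the FHL protein of skeletal muscle fibres, read 3830 in d/d muscle against 4793 in f/f muscle on its bright probe set 1417872_at, 1.25-fold lower in d/d. On the dim probe set 1459003_at it read 18.4 in d/d against 47.8 in f/f muscle, 2.59-fold lower. Which of these values stands for the gene cannot be settled from the deposited table, and the bright one did not pass 2-fold. Fhl2 (1419184_a_at), the FHL protein of the heart, read 4.15 in d/d muscle, under the floor, against 15.8 in f/f muscle, which makes it at least 2.10-fold lower in d/d from a level near background. With values as deposited its log2 difference was -0.88, under 2-fold, and with the floor at the 60th percentile it was not measured, so that under either 7 probe sets, not 8, passed 2-fold. Fhl1 lies on chromosome X, at 56731209 to 56793346, and Fhl2 on chromosome 1, at 43123071 to 43198343.

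Xirp1 (1419220_at), an actin-binding protein of the intercalated disc that also appears at sites of muscle damage, read 199 in d/d muscle against 435 in f/f muscle, 2.19-fold lower in d/d. The gene lies on chromosome 9, at 120013755 to 120023598.

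**Figure D1:**
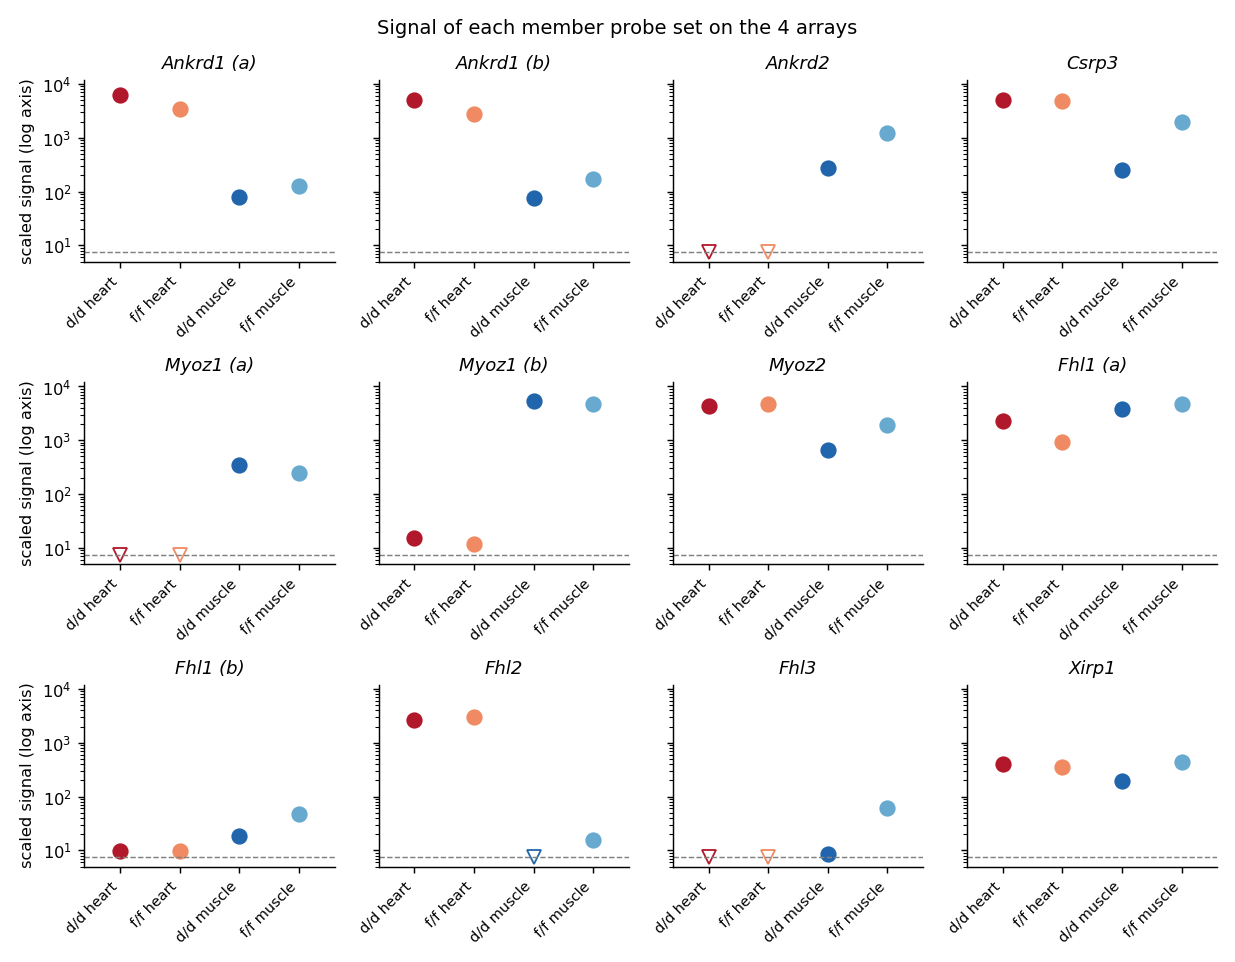
Scaled signal (log axis) of each of the 12 probe sets on the 4 arrays, d/d left of f/f in each tissue, 1 point per array. The dashed line is the floor of 7.51, open triangles are signals under it, and (a) and (b) are the probe sets of a gene in the order of their number. Csrp3 is at 249 in d/d muscle and between 1979 and 5094 on the other 3 arrays.

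As a measure of how far probe sets disagree, the SD of the log2 difference among probe sets of 1 gene was 0.40 in muscle, over 5207 genes, and 0.39 in heart, over 5375 genes. It does not measure variation between animals.

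In heart, Fhl1 was the gene past 2-fold: its bright probe set read 2269 in d/d heart against 929 in f/f heart, 2.44-fold higher in d/d. It was the 1 probe set at least 2-fold higher in d/d among the 9 of these genes that were measured in heart, and 0 were at least 2-fold lower. Of the 29960 probe sets measured in heart in all, 3.66% were higher by 2-fold or more and 4.54% lower, so 1 of 9 is too few to set apart from the background. The dim Fhl1 probe set read 9.90 in d/d heart against 9.86 in f/f heart, near the floor, and did not show the difference. Fhl1 lay above the range of -0.83 to 1.0 that held the middle 95% of the 1800 probe sets over 500 in heart, and the other 8 probe sets lay inside the range of their class.

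Ankrd1 read 6255 in d/d heart against 3427 in f/f heart on 1420991_at, 1.83-fold higher in d/d. On 1420992_at it read 4939 in d/d heart against 2827 in f/f heart, 1.75-fold higher. Both probe sets were higher in d/d heart and lower in d/d muscle. The other genes of the heart differed by less: Csrp3 by 1.07-fold and Xirp1, at 408 in d/d heart against 360 in f/f heart, by 1.13-fold, both higher in d/d, while Myoz2 at 4346 in d/d against 4765 in f/f heart and Fhl2 at 2663 in d/d against 2972 in f/f heart were 1.10-fold and 1.12-fold lower. Myoz1, dim in heart at 15.6 in d/d against 11.6 in f/f on 1460202_at, was 1.35-fold higher in d/d. The 3 probe sets of Ankrd2, Fhl3 and Myoz1 (1448636_at) with both hearts under the floor give no comparison.

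**Figure D2:**
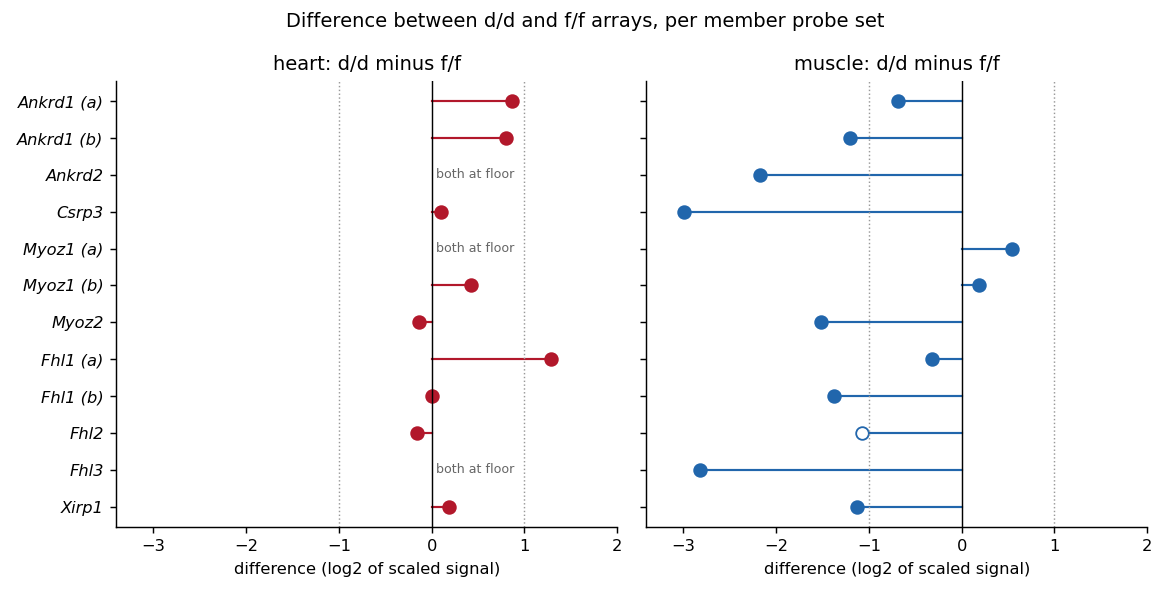
Log2 difference, d/d minus f/f, of each probe set in heart (left) and muscle (right), 1 point per probe set with a line from 0. Dotted lines mark 2-fold, the open circle is a bound with d/d muscle at the floor, and (a) and (b) are the probe sets of a gene in the order of their number. Values run from -0.16 to 1.29 in heart and from -2.99 to 0.54 in muscle.

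To describe these genes beyond the rule, the bases before their annotated starts were read. RefSeq's promoter table for GRCm38.p6 held 11 starts of 8 of the genes, Myoz1 and Xirp1 aside, and the 250 bases before each start were searched on both strands for a CArG box, which serum response factor binds, a MEF2 box, an MCAT element (CATTCC), which TEAD factors bind, and an E-box (CANNTG), and on the gene's own strand for a TATA box (TATAAA or TATATA). These factors drive many muscle genes. The promoters of the gene lowest in d/d muscle, of Ankrd1, whose heart and muscle differences were opposite and at least 1.5-fold each, and of the lower myozenin are shown, 5′ to 3′ on the gene's strand, with matches other than E-boxes in capitals.
Csrp3, chr7:48848052-48848301, minus strand: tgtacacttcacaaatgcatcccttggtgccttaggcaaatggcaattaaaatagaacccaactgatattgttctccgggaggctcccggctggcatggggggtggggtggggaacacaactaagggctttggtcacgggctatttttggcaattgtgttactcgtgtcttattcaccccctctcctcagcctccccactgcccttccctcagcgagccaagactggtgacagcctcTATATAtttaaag
Ankrd1, chr19:36119845-36120094, minus strand: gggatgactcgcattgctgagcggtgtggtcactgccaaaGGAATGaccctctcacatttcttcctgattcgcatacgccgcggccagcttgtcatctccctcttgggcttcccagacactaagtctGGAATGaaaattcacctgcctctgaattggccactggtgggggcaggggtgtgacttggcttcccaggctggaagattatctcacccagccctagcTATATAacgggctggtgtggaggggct
Myoz2, chr3:123034988-123035237, minus strand: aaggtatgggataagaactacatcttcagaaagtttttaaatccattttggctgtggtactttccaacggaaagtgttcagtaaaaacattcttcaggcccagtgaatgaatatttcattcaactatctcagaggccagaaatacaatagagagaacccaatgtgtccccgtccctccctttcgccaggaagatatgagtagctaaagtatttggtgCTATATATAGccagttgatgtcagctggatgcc

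In the Ankrd1 promoter the capitals mark 2 MCAT elements, at 210 to 205 and 123 to 118 bases before the start and both on the opposite strand, and a TATA box. It was the 1 of the 11 starts with an MCAT element, which 12.6% of the 32851 promoters of the table held. In the Csrp3 promoter the capitals mark a TATA box, and in that of Myoz2 a MEF2 box that overlaps 2 TATA boxes. A MEF2 box was found at 2 of the 11 starts, those of Myoz2 and Xirp2, against 1.69% of all promoters, and a TATA box at 4 starts, against 11.5%. E-boxes were found at 10 of the 11 starts, against 66.2% of all promoters.

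A CArG box was found at 3 starts, 1 of Fhl1 and both of Fhl2, against 1.47% of all promoters. These stretches are shown with the box in capitals, beside the TATA box of Ankrd2.
Fhl1, chrX:56779571-56779600, plus strand: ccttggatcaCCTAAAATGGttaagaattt
Fhl2, outer start, chr1:43196838-43196867, minus strand: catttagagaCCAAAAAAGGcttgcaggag
Fhl2, inner start, chr1:43163973-43164002, minus strand: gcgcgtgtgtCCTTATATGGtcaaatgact
Ankrd2, chr19:42035986-42036015, plus strand: ggtgcttgggccTATAAAgaccccatgccc
Fhl3 had 0 matches of the 5 motifs in its window, whose GC content of 74% was above that of 95.1% of promoters, with a median of 52.4% over all. The windows of Fhl1, Fhl2 and Fhl3 and the inner one of Csrp3 lie wholly inside the annotated gene, and 110 bases of that of Ankrd2 and 16 of that of Myoz2 do. A match is a description of letters and not a measured site, and the counts of starts were not tested against the shares of all promoters.

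The genes fall into those of the heart, those of skeletal muscle and those of both. Heart was compared with muscle over the 4 arrays with limma, with genotype as a term, so that 1 residual degree of freedom remained and a genotype effect unequal in the tissues counts as error. On simulated data this fit made more false calls than the nominal rate and missed the smallest differences put in, so its adjusted p-values are approximate. The muscle means include the d/d and f/f muscle values whose contrast chose several of the genes. Differences between heart and muscle are thus drawn in part from them. The folds within f/f leave out the d/d value but still use the f/f muscle value of that contrast. At an adjusted p under 0.05, 4 of the 12 probe sets were higher in heart and 3 lower, beside 6.30% higher and 4.71% lower of 28659 probe sets tested. Of the 3 lower, those of Ankrd2 and 1 of Myoz1 passed the filter through muscle alone, so nothing is read from this count. Of all calls, 1805 were higher and 1351 lower in heart, and with the values as deposited, where the heart arrays are brighter, 4686 were higher and 855 lower. When the floor was set at the 20th percentile, or with no filter on dim probe sets, limma called 0 probe sets at this threshold, and 6803 and 6726 had an unadjusted p under 0.05.

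Fhl2 was at least 354-fold higher in heart than in muscle in d/d, where muscle was under the floor, and 188-fold higher in f/f. Each fold within a genotype compares 1 heart array with 1 muscle array. In the fit (n = 2 arrays a tissue), Ankrd1 was higher in heart by 5.54 on the log2 scale (SE 0.42) and by 5.04 (SE 0.49) on its probe sets. In f/f alone it was 27.1-fold and 16.5-fold higher. Myoz2 was higher by 2.02 (SE 0.39), as 6.55-fold in d/d and 2.51-fold in f/f. The low d/d muscle values on which these genes were chosen enter these estimates, so no p-value is given for them.

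Myoz1, the fast fibre myozenin, gave a log2 difference of -8.53, lower in heart, on its bright probe set (SE 0.28, limma adjusted p = 0.00015), at 15.6 in d/d heart against 11.6 in f/f heart. Where both hearts were under the floor, the difference is a bound set by the floor. Ankrd2 was at least 36.5-fold lower in heart in d/d, and in f/f at least 164-fold lower. The other Myoz1 probe set was at least 47.1-fold lower in heart in d/d, and in f/f at least 32.4-fold lower. Both probe sets passed the filter through muscle alone, and the floor makes their heart values equal, so no p-value is given for them.

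The other 5 probe sets did not pass an adjusted p under 0.05. The muscle values whose contrast chose several of the genes enter these estimates too. For that reason no p-value is given for them, and nothing is read from their not passing. Csrp3 differed by 2.81 (SE 0.68), and its gap between heart and muscle was 20.5-fold in d/d and 2.41-fold in f/f. These gaps differ mostly through the low d/d muscle value already given. Fhl1 differed by -1.56 and -1.59 on its probe sets. Its bright probe set was 1.69-fold lower in heart in d/d and 5.16-fold lower in heart in f/f. Fhl3, with both hearts under the floor, was at least 1.15-fold lower in heart in d/d, and in f/f at least 8.13-fold lower. Xirp1, at a difference of 0.38, was 2.06-fold higher in heart in d/d and 1.21-fold lower in heart in f/f.

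Transcripts of cardiac muscle were also lower in d/d muscle. Of the 12 cardiac markers, 9 were measured in muscle, and 6 of these were at least 2-fold lower in d/d muscle and 0 higher, with a median of -1.45. Their summed signal was 695 in d/d muscle against 1158 in f/f muscle, beside 45226 in d/d heart against 42140 in f/f heart, and Ryr2, Myl7 and Nkx2-5 were under the floor in both muscles. Cardiac troponin I, Tnni3, read 8.30 in d/d muscle against 86.8 in f/f muscle. The part of heart-type transcripts in the lower signals of the Z-disc and stretch-response genes was not tested. The levels in muscle are given next as a share of those in heart, as a description.

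The summed cardiac markers in muscle came to 1.54% of their heart signal in d/d against 2.75% in f/f, and single markers to at most 15.2% in d/d against 13.6% in f/f, both for the gap junction gene Gja1. Csrp3 in muscle was 4.89% of its heart signal in d/d against 41.5% in f/f, and Myoz2 15.3% in d/d against 39.8% in f/f. In f/f both shares were above those of the 12 cardiac markers. They were also above the median of the 8 slow fibre markers, 16.7%, inside a wide range of 4.32% to 365%. The top of that range is Tnni1, dim in f/f heart at 12.3. The source of the Csrp3 and Myoz2 transcripts in muscle was not tested. Ankrd1 was at 1.26% and 1.51% of the heart signal in d/d and at 3.69% and 6.07% in f/f, and Fhl2 was at 0.532% in f/f. These values lie within the range of the cardiac markers. After Gja1, the highest cardiac markers in f/f were Myl4 at 6.19% and Nppa at 3.94%. For Ankrd2 and Fhl3 the heart signal was under the floor.

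**Figure D3:**
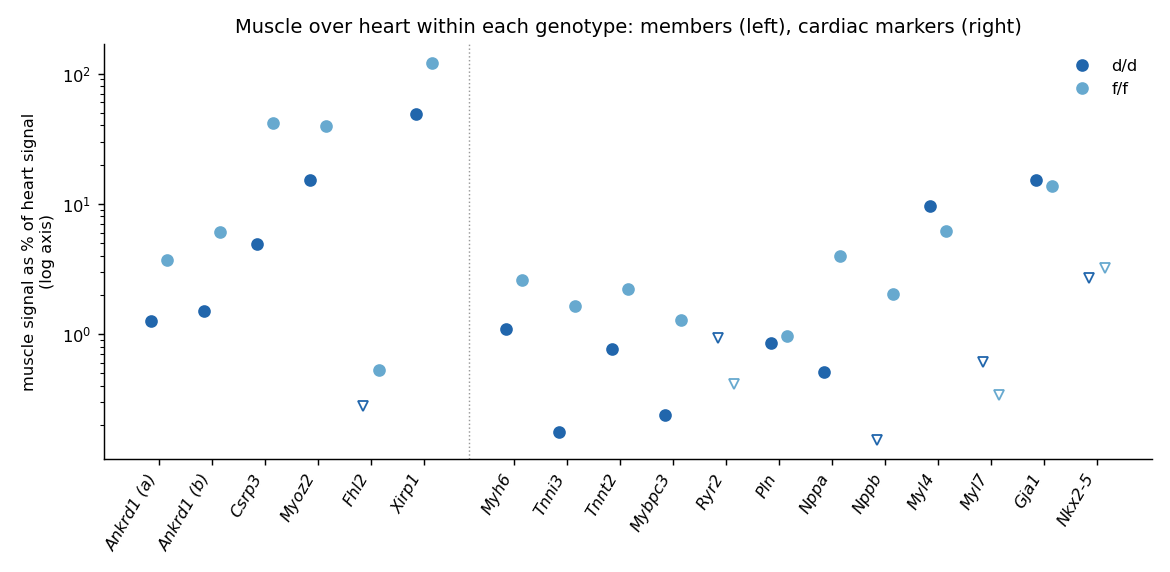
Muscle signal as a percent of the heart signal (log axis) within d/d (dark) and f/f (light), 1 point per probe set, for the probe sets of Z-disc and stretch-response genes that were not over 2-fold lower in heart (left) and for 12 cardiac markers (right). Open triangles have the muscle signal at the floor, and (a) and (b) are the Ankrd1 probe sets in the order of their number. In f/f, Csrp3 at 41.5%, Myoz2 at 39.8% and Xirp1 at 121% lie above all cardiac markers.

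Slow fibres share several contractile genes with the heart. The 8 slow fibre markers had a median of -0.65 in muscle, with 7 of 8 lower in d/d, 2 at least 2-fold lower in d/d and 0 higher, and a summed signal of 2040 in d/d muscle against 3194 in f/f muscle. The 2 past 2-fold are also used by the heart. The regulatory light chain Myl2 read 189 in d/d against 764 in f/f muscle and troponin C, Tnnc1, 98.6 in d/d against 216 in f/f muscle. Slow myosin, Myh7, read 55.1 in d/d against 107 in f/f muscle, and the calcium pump Atp2a2 was 1.80-fold lower in d/d. The troponins of slow skeletal fibres differed least in this list, since Tnni1 read 39.6 in d/d against 45 in f/f muscle and Tnnt1 52.0 in d/d against 51.4 in f/f muscle. Fast fibre markers had a median of 0.09, with 0 of 10 past 2-fold, and a summed signal of 80968 in d/d muscle against 76954 in f/f muscle.

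Markers of other cells also differed. Fibroblast markers had a median of -0.84 in muscle, with 8 of 8 lower in d/d and 3 at least 2-fold, at a summed 4524 in d/d against 7137 in f/f muscle, and macrophage markers a median of -0.55, at a summed 483 in d/d against 768 in f/f muscle. In heart, where Ankrd1 and Fhl1 were higher in d/d, fibroblast markers summed to 9847 in d/d against 6008 in f/f, and macrophage markers to 1443 in d/d against 1007 in f/f. Fast fibre markers summed to 58.1 in d/d heart against 167 in f/f heart, with 4 of 8 at least 2-fold lower. Of the adipocyte markers 2 were measured: Adipoq was 4.47-fold lower in d/d heart and 2.30-fold lower in d/d muscle, and Fabp4 was 1.13-fold lower in d/d heart and 1.15-fold higher in d/d muscle. Endothelial markers summed to 640 in d/d against 643 in f/f muscle. The regeneration list had a median of 0.06 in muscle, where 1 of 6 was lower by 2-fold or more and 0 were higher, and smooth muscle markers a median of -0.11. The part of these cells in the results was not tested.

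Other Z-disc genes mostly differed little in muscle. Of 28 other Z-disc genes fixed as a list, 27 were on the arrays, and 1 was at least 2-fold lower in d/d muscle and 0 higher, with a median of -0.08, beside a median of -0.003 and 3.25% at least 2-fold lower over all 14256 genes measured in muscle. The gene was Pdlim1, a PDZ and LIM protein that binds alpha-actinin, at 150 in d/d against 341 in f/f muscle. Filamin C, Flnc, a partner of Xirp1 and of the myozenins, read 385 in d/d against 660 in f/f muscle. At the other end were Sorbs2, at 264 in d/d against 201 in f/f muscle, and the actin-capping subunit Capzb, at 1700 in d/d against 1395 in f/f muscle.

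In heart, 2 of the 25 measured genes of this list were higher in d/d by 2-fold or more and 1 was lower, with a median of 0.07, beside -0.05 over all 13836 genes measured. Synpo2l, an actin-binding Z-disc protein, read 2254 in d/d against 822 in f/f heart, and Flnc 350 in d/d against 146 in f/f heart. Flnc thus resembled Ankrd1, with a higher signal in d/d heart and a lower one in d/d muscle. Myotilin, Myot, read 199 in d/d against 454 in f/f heart, and the formin Fhod3 642 in d/d against 865 in f/f heart. In the tissue where they are named, Synpo2l, Pdlim1 and Sorbs2 each had 1 other probe set on the opposite side.

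Close relatives of the genes gave 5 measured genes in muscle and 3 in heart. Ankrd23, the remaining titin-binding ankyrin-repeat gene of muscle, read 4861 in d/d against 3624 in f/f muscle, 1.34-fold higher in d/d, and 1317 in d/d against 552 in f/f heart, 2.38-fold higher. Of the 3 ankyrin-repeat genes, Ankrd1 and Ankrd2 were thus lower and Ankrd23 higher in d/d muscle. Myoz3 read 279 in d/d against 316 in f/f muscle, and Csrp2 32.0 in d/d against 42.3 in f/f muscle. In muscle 0 of the 5 passed 2-fold in either direction, with a median of -0.16.

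Among calcineurin, NFAT and MEF2 genes, the pathway that the myozenins restrain, Rcan1, a calcineurin inhibitor induced by calcineurin itself, was the 1 of 12 at least 2-fold higher in d/d heart, at 700 in d/d against 266 in f/f, with a list median of -0.05. In muscle it read 140 in d/d against 273 in f/f, 1.96-fold lower, and 0 of 12 passed 2-fold, with a median of 0.08.

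Of the 15 regulators and targets of SRF and of TEAD and YAP, 2 were higher in d/d heart by 2-fold or more and 0 lower, with a median of 0.35. They were Ccn2, a matricellular target of YAP, at 2348 in d/d against 431 in f/f heart, and skeletal actin, Acta1, at 4668 in d/d against 1499 in f/f heart. In muscle 0 of 14 passed 2-fold, with a median of 0.01, and Ccn1, another YAP target, was the highest, at 253 in d/d against 140 in f/f muscle. Muscle ubiquitin ligase and denervation genes had medians of -0.09 in heart and 0.17 in muscle. Trim63, a ligase of the sarcomere, read 1194 in d/d against 1145 in f/f muscle, and Runx1, at 28.1 in d/d against 13.3 in f/f muscle, was the 1 at least 2-fold higher, with 3 of its 4 other measured probe sets on the opposite side.

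**Figure D4:**
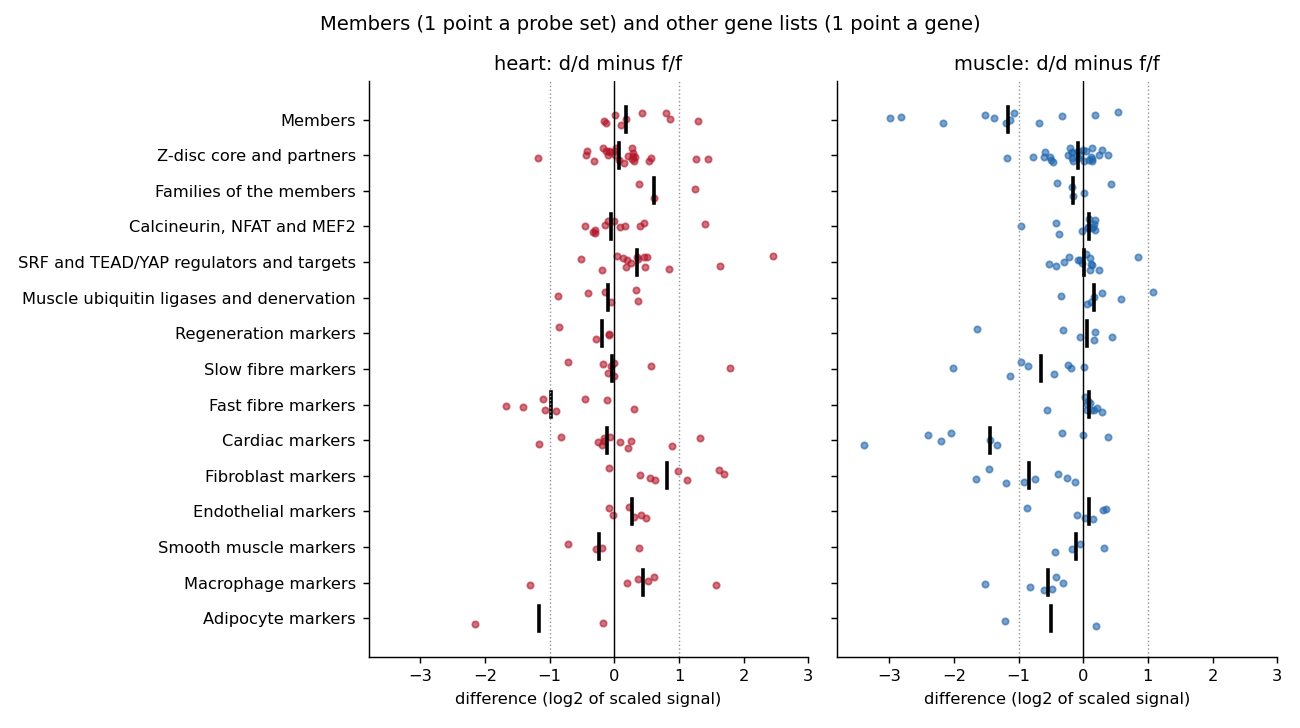
Log2 difference, d/d minus f/f, in heart (left) and muscle (right) for the Z-disc and stretch-response probe sets (top row, labelled Members) and for genes of the other lists, with the median as a black bar and dotted lines at 2-fold. In muscle the medians are -1.17 for the top row, -0.08 for other Z-disc genes and -1.45 for cardiac markers.

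Among the Z-disc and stretch-response genes Csrp3 had the largest muscle difference, and the genes nearest to its pattern were found by the Euclidean distance of log2 signals centred over the 4 arrays, among 10532 other genes above the floor on all of them. The nearest was sarcolipin, Sln, a regulator of the calcium pump, at a distance of 0.99, with 562 in d/d heart, 855 in f/f heart, 41.6 in d/d muscle against 152 in f/f muscle. Gfod1 followed at 1.01, the ketone body enzyme Bdh1 at 1.12, the scavenger receptor Stab1 at 1.19 and Pi16 at 1.30. With 4 arrays this likeness rests on few points, and all 5 genes were lowest in d/d muscle, with log2 differences between d/d and f/f muscle of -1.87 to -1.36, beside -2.99 for Csrp3.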

How the data were processed

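Total RNA of 4 mouse samples was measured on oligonucleotide arrays, 1 array per group. The authors deposited 1 linear intensity per probe set and array, from 0 to 9375; the summarisation of the scans is not given in the labels, and the table holds no detection call. Here the 64 control probe sets were left out, each array was scaled so that its 2% trimmed mean equalled the mean of the 4, signals under the floor (mean 40th percentile) were raised to it, and log2 was taken. These log2 values and fold changes were computed here from the deposited intensity. Gene symbols came from the platform annotation and RefSeq: of 45037, 34945 had 1 symbol. For list genes with several probe sets, the one brightest on average over the arrays (log2) was used, and a difference was counted from 2-fold with the higher array above the floor.

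Heart and muscle were compared with limma 3.58.1 in R 4.3.3 (lmFit and eBayes, Benjamini-Hochberg adjustment over 28659 probe sets above the floor on at least 2 arrays). In a check on data made with known differences, the estimates came close to those differences, but the smallest were not called and the larger came with more false calls than the nominal rate. The number of arrays limits the precision. All probe sets of the genes were named, with the 2 highest and 2 lowest genes of a list per tissue, the 5 nearest to the Csrp3 pattern, Sod2 and markers. The genes and lists were chosen with earlier results of these data known. Other floors, scalings, folds and filters were tried.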

Additional observations from a re-analysis of the deposited data

Results flagged for a closer look

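Ankrd1 differed between d/d and f/f in opposite directions in heart and muscle, by at least 1.5-fold in each. On probe set 1420991_at the log2 difference was 0.87 in heart and -0.68 in muscle, so the heart difference exceeded that of muscle by 1.55. On 1420992_at it was 0.80 in heart and -1.20 in muscle, a gap of 2.01. With 1 array per group this gap was not tested. Opposite directions were not particular to Ankrd1, since some genes of the other lists had them too. Nppa differed by 0.89 in heart and -2.05 in muscle, Rcan1 by 1.40 and -0.97, and Col1a1 by 1.62 and -1.45.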

How the results depend on the processing

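Other floors (20th and 60th percentile), scalings (none, quantile), a 3-fold limit, other filters and a mean-variance trend were tried. At 3-fold, 3 probe sets were lower in d/d muscle and 0 higher in d/d heart. When the floor was the 20th percentile, 2 were lower in d/d heart, as were 5380 of all probe sets, beside 1359 in the report. Of 81 recomputed log2 differences, 79 moved by less than the SD between probe sets of a gene. The exceptions were Fhl2 in muscle, at -1.93 for the 20th percentile floor, and Fhl3 in muscle, at -1.69 for the 60th. The count of heart against muscle calls, 3156 in the report, was 5541 with values as deposited, 4753 for the 60th percentile floor, 5577 with the trend, and 0 for the 20th percentile floor or no filter, where 0 of the Z-disc and stretch-response probe sets passed. Csrp3 passed with values as deposited, the higher floor or the trend. The bright Fhl1 probe set passed with the higher floor or the trend, and the dim one with the trend. The muscle values whose contrast chose several of the genes enter these estimates, so nothing is read from these passes. Signal near background limits Fhl2, Fhl3 and the dim Fhl1 probe set. Over all probe sets, those at least 2-fold lower in d/d muscle, 1059 in the report, were 5135 for the 20th percentile floor and 185 for the 60th, and 135 were 3-fold lower. Those higher in d/d muscle, 3.13% in the report, were 5237, 131 and 108 in that order, and 515 with values as deposited. For the 60th percentile floor 479 were lower and 569 higher in d/d heart, and at 3-fold 209 and 281. Those higher in d/d heart, 1098 in the report, were 4169 for the 20th percentile floor. With 1 array per group, no array could be left out of a d/d against f/f difference.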
